A study of Mus musculus with 4 samples.

Results

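The transcription factors of the hair matrix and hair shaft are a set of 10 genes, Lef1, Msx1, Msx2, Dlx3, Hoxc13, Foxn1, Foxq1, Sox21, Gata3 and Cux1. They were followed here in mouse skin cells after induction of the microRNA miR-203. The members were chosen by symbol, as every probe set annotated to exactly one gene with one of these symbols. This gave 25 of the 45037 probe sets of the array, and at least 1 probe set was measured for each of the 10 genes. The induced animals carried K14-rtTA, TRE-miR-203 and K14-H2BGFP and are labelled miR-203 inducible. Their littermate controls carried TRE-miR-203 and K14-H2BGFP without K14-rtTA, and are labelled WT. Both groups were of FVB background, were taken on postnatal day 4, 24 h after a doxycycline (Dox) injection, and carried both the microRNA transgene and the nuclear green fluorescent protein. K14-rtTA is the doxycycline-dependent activator under the keratin 14 promoter, which is active in basal epidermal cells and in the outer root sheath of the follicle rather than in the hair shaft. Because the controls lacked that activator, effects of the activator and of miR-203 cannot be told apart. Cells were sorted by FACS, the gate being not given in the sources used here. There are 2 arrays per group, labelled as biological replicates. The comparison asks whether regulators of the shaft move together with the keratins downstream of them.

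A hair grows from the matrix, a cup of dividing epithelial cells around the dermal papilla, whose descendants form the concentric layers of the shaft and of the inner root sheath. Wnt and BMP signals set these fates through transcription factors, which then switch on layer-specific keratins and their partners. Lef1 is the partner of beta-catenin in Wnt signalling, Msx1 and Msx2 are homeobox genes of the BMP-responsive matrix, and in the mouse Dlx3 is required for hair and acts upstream of Hoxc13 and Gata3. Hoxc13 binds hair keratin promoters, Foxn1 is the gene mutated in nude mice, and Foxq1, mutated in satin mice, acts in the medulla. Sox21 acts in the shaft cuticle, and Gata3 and Cux1 in the inner root sheath.

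The transgene expresses miR-203. Its mature arm miR-203-3p is printed here because it is the molecule that was induced, with the seed (bases 2 to 8) in capitals. It lies at chr12:112130927-112130948 on the plus strand of GRCm38.p6, per RefSeq.
mmu-miR-203-3p: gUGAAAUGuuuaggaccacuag
The probe sets used here measure messenger RNA and not the mature microRNA, so how far miR-203 was induced is not known from these arrays.

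The windows of 250 bases before the start of 4 shaft keratin genes are printed because they carry, close together on chromosome 11, the letters that Lef1 and Hoxc13 are known to bind. They were taken from RefSeq on GRCm38.p6, all on the minus strand, at chr11:100050552-100050801 for Krt31, chr11:100088270-100088519 for Krt32, chr11:100029869-100030118 for Krt33b and chr11:100041555-100041804 for Krt34. Capitals mark CTTTGA, the Lef1 motif, and the Hoxc13 motif, which was searched as TTAATN or TTTATN followed by 2 purines. Hoxc13 matches that overlapped TATAAA are not marked.
Krt31: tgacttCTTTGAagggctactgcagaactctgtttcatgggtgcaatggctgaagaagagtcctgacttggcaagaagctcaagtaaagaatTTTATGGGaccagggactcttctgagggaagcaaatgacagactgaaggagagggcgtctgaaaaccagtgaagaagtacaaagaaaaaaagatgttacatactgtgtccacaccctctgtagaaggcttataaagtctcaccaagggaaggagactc
Krt32: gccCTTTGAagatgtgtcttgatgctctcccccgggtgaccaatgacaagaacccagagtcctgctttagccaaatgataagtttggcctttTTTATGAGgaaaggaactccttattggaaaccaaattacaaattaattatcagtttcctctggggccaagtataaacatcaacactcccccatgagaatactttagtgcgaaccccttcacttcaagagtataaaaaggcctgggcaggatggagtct
Krt33b: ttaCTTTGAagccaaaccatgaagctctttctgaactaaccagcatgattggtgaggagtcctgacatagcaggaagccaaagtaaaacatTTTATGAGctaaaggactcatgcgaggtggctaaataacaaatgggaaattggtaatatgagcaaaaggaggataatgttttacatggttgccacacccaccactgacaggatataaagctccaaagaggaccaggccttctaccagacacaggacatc
Krt34: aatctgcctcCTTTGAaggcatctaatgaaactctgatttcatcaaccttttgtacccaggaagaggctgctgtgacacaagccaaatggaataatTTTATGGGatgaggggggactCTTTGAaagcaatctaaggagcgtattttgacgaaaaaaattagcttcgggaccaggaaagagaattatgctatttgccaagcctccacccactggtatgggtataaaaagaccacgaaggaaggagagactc
The Lef1 motif stood 244 bases before the start in Krt31, 247 in Krt32 and in Krt33b, and 240 and 133 in Krt34. The Hoxc13 motif stood 158 bases before the start in Krt31 and in Krt32, 159 in Krt33b and 154 in Krt34. Aligned in pairs with gaps allowed, the windows were 51.9% to 61.5% identical. No unrelated windows were aligned for comparison, so this identity does not show whether the positions are independent between the genes. They should not be read as independent.

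Over the 9 shaft keratin starts in the RefSeq promoter table, 8 windows held the Hoxc13 motif and 5 held the Lef1 motif, on either strand. The same letters were in 17.2% and 13.8% of the 32851 promoter windows of the table. With matches overlapping TATAAA left out, the Hoxc13 motif was in 8 of the 9 shaft keratin windows, against 14.6% of all windows. Of the 8 starts of the inner root sheath and companion layer keratins, 6 held the Hoxc13 motif. In 2 it stood clear of TATAAA, which was in 7 of these 8 windows and in 6 of the 9 shaft keratin windows. The Foxn1 motif GACGC was in 1 shaft keratin window and in 1 sheath keratin window, against 22.6% of all windows. The Msx motif TAATTG and the Gata motif AGATAA were each in 0 of the shaft keratin windows and in 4 of the sheath keratin windows, against 7.17% and 9.99% of all windows. A match is a description of letters and not a binding site. Among the regulators themselves, 7 genes with 10 starts were in the table, and 4 of these windows held GACGC, 2 the Lef1 motif and 1 the Hoxc13 motif. The table has no entry for Hoxc13, Dlx3 and Foxq1.

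The deposited values are log2 RMA values, on which a difference of 1 is a doubling. The 4 arrays had medians of 4.74 to 4.79, and Pearson's r across the kept probe sets was 0.994 between the induced arrays and 0.995 between the controls, against 0.991 to 0.993 between groups. One array stood apart. Induced replicate 1 was the only one with a Y-linked signal, 9.38 for Eif2s3y against 2.72 in induced replicate 2 and 2.82 and 2.52 in the controls, and its Xist, the X-inactivation transcript, read 5.86 against 11.2, 10.6 and 10.8. The differences of the kept probe sets of the 10 regulators are therefore also given without that array, as are those of the keratins, factors and signal genes named beside them. Of the 25 probe sets of the regulators, 20 passed the filter on dim values, a mean of at least 4.17, and 5 did not (1 of Msx2 and 4 of Cux1). The small number of arrays limits every value. The p-values weigh a difference against no more than the spread between these samples, which limma moderates toward that of all kept probe sets.

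With induction, Foxn1, Hoxc13 and Msx2 had higher means than in the controls, by 1.73-fold, 1.84-fold and 1.62-fold, and Dlx3 was 1.32-fold higher. In these 4 genes both induced arrays lay above both controls. Gata3, Sox21, Cux1, Msx1 and Lef1 had overlapping groups. No probe set of the array passed limma's Benjamini-Hochberg adjusted p of 0.05, 0 of the 20 of these genes and 0 (0%) of all 27022. At an unadjusted p under 0.05, 5 of the 20 probe sets were higher, against 5.41% of all probe sets, and 1 was lower, against 4.69%. Without 1 array, the count of higher probe sets was 8, against 4.7% of all probe sets (without induced replicate 1), 3, against 3.91% (without induced replicate 2), 2, against 3.76% (without control replicate 1), and 5, against 4.44% (without control replicate 2). The 1 lower probe set was of Cux1, and its difference of -0.35 ran from -0.50 to -0.20 with 1 array left out. Under a fit in which the spread may vary with the level (eBayes with trend and robust), Foxn1 passed, with an adjusted p of 0.0493, while 0.466% of all probe sets passed.

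**Figure D1:**
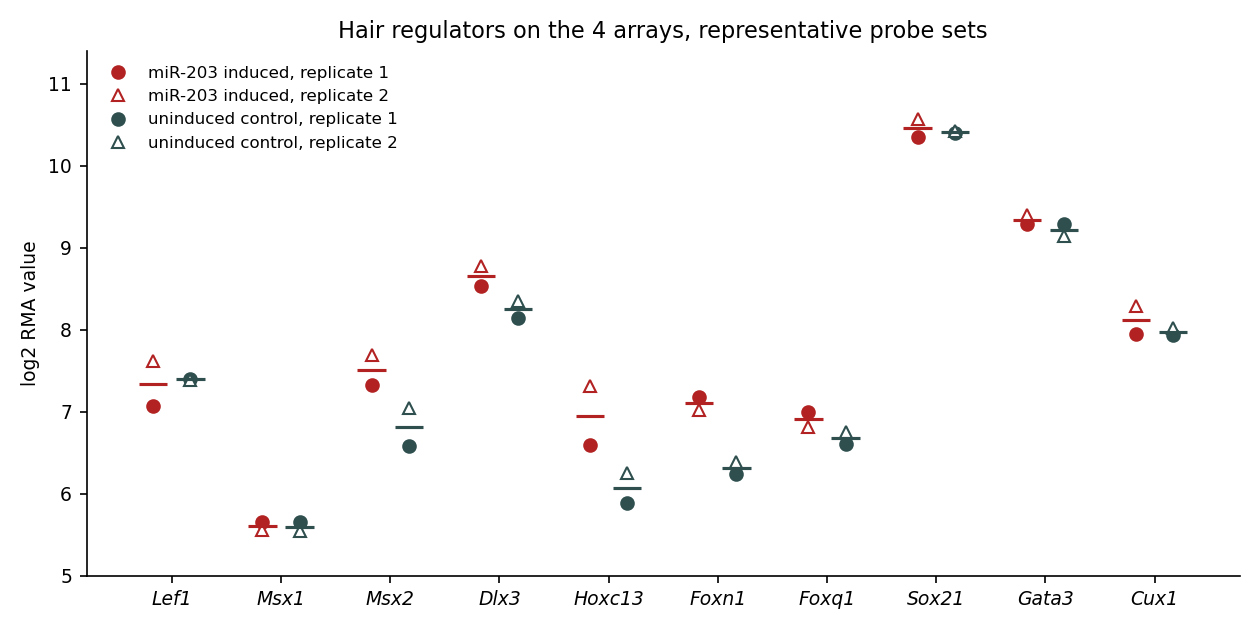
Log2 RMA value of the representative probe set of each of the 10 regulators on each array, induced at left and control at right, with filled circles for replicate 1, open triangles for replicate 2 and bars for group means. Foxn1, Hoxc13, Msx2, Dlx3 and Foxq1 have both induced arrays above both controls, and the other genes overlap.

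By gene, taking the kept probe set with the highest mean, 5 of the 10 regulators had both induced arrays above both controls (Foxn1, Hoxc13, Msx2, Dlx3 and Foxq1), against 20.1% of all 13489 genes, and 0 had both below, against 19.3%. With 1 array left out, 3 arrays separate more easily, and the count above the controls was 9, against 35.9% of all genes (without induced replicate 1), 6, against 33.5% (without induced replicate 2), 7, against 37.3% (without control replicate 1), and 6, against 33.2% (without control replicate 2). Below the controls there were 2 without induced replicate 2 (Lef1 and Sox21), against 35.3% of all genes, and 0 without any other array, against 31.9% to 37.9%. In unadjusted p, 4 genes were higher at under 0.05, against 4.4% of all genes, and 0 were lower, against 5.23%. The median difference over the 10 genes was 0.19, against -0.00 over all genes. A difference in bulk RNA cannot tell fewer cells of a type apart from less RNA per cell.

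Of the matrix regulators nearest the Wnt and BMP signals, Lef1 read 7.06 and 7.62 in the induced arrays, against 7.40 and 7.39 in the controls. The induced arrays lay on both sides of the controls, and the difference was -0.05 ± 0.19 (SE, n = 2 each, limma adjusted p = 0.971). Its other probe set read 5.09 and 5.60 in the induced arrays and 5.31 and 5.30 in the controls, the same pattern, and its difference of 0.04 ± 0.18 was 0.30 without induced replicate 1 and -0.21 without induced replicate 2. The first Lef1 probe set was -0.33 without induced replicate 2 and 0.23 without induced replicate 1, so the sign rests on which induced array is used for both probe sets. Msx1 read 5.65 and 5.56 in the induced arrays and 5.65 and 5.55 in the controls, with a difference of 0.01 ± 0.10 (SE, n = 2 each, limma adjusted p = 0.993). It was -0.04 without induced replicate 1. A second Msx1 probe set read 4.89 and 5.92 in the induced arrays and 5.06 and 5.13 in the controls. Here the 2 induced arrays differed by more than 1 unit from each other and overlapped the controls, and the difference of 0.31 ± 0.32 was 0.82 without induced replicate 1 and -0.21 without induced replicate 2.

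Msx2, the other Msx gene of the matrix, which in the mouse acts upstream of Foxn1, differed from its relative Msx1. It read 7.32 and 7.70 in the induced arrays, against 6.58 and 7.05 in the controls. Both induced arrays were above both controls, with a gap of 0.28 between the nearest arrays, a difference of 0.70 ± 0.20 (SE, n = 2 each, unadjusted p = 0.0131, limma adjusted p = 0.354). It was 0.88 without induced replicate 1 and 0.46 to 0.93 over the other arrays left out. Its second probe set was dim, at 3.45 and 3.64 in the induced arrays and 3.52 and 3.41 in the controls. The difference between Msx1 and Msx2 was not tested.

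Dlx3 read 8.53 and 8.78 in the induced arrays, against 8.15 and 8.35 in the controls. The groups did not overlap, with a gap of 0.18, and the difference was 0.41 ± 0.13 (SE, n = 2 each, unadjusted p = 0.0237, limma adjusted p = 0.409). A second probe set was also separated, at 6.10 and 6.15 in the induced arrays and 5.99 and 5.95 in the controls. Without induced replicate 1 the difference was 0.53 in the first and 0.19 in the second, and without induced replicate 2 it was 0.28 and 0.14. The first was 0.30 without control replicate 1 and 0.51 without control replicate 2.

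Hoxc13, which acts directly on hair keratin genes, read 6.59 and 7.31 in the induced arrays, against 5.89 and 6.26 in the controls. Both induced arrays were above both controls by a gap of 0.34, and the difference was 0.88 ± 0.25 (SE, n = 2 each, unadjusted p = 0.0141, limma adjusted p = 0.362). The induced arrays differed by 0.72 from each other, and the value was 1.24 without induced replicate 1 and 0.52 without induced replicate 2. Foxn1, the forkhead factor needed for shaft differentiation, read 7.18 and 7.02 in the induced arrays, against 6.24 and 6.38 in the controls. It was separated by a gap of 0.64, and the difference was 0.79 ± 0.11 (SE, n = 2 each, unadjusted p = 0.000491, limma adjusted p = 0.173), the lowest p of these genes and rank 76 of all 27022 probe sets. Its second probe set was separated likewise, at 6.46 and 6.49 in the induced arrays and 5.74 and 5.98 in the controls (difference 0.62 ± 0.12, SE, n = 2 each, limma adjusted p = 0.210). With any 1 array left out Foxn1 stayed between 0.70 and 0.87, and without induced replicate 1 it was 0.70 in the first probe set and 0.63 in the second.

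Foxq1 read 7.00 and 6.82 in the induced arrays, against 6.61 and 6.75 in the controls. The groups were separated by a gap of 0.07, and the difference of 0.23 ± 0.11 (SE, n = 2 each, limma adjusted p = 0.588) was 0.14 without induced replicate 1. Its other probe set was also separated, at 5.68 and 5.67 in the induced arrays and 5.63 and 5.65 in the controls. This was a difference of 0.04 ± 0.09, and 0.03 without induced replicate 1. Sox21, the SoxB factor of the shaft cuticle, read 10.35 and 10.57 in the induced arrays, against 10.40 and 10.42 in the controls. They overlapped, the difference was 0.06 ± 0.11 (SE, n = 2 each, limma adjusted p = 0.940), and its second probe set differed by -0.05 ± 0.10. The first was 0.17 without induced replicate 1 and -0.06 without induced replicate 2, and the second was -0.01 without induced replicate 1.

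Of the inner root sheath factors, Gata3 read 9.28 and 9.39 in the induced arrays, against 9.29 and 9.14 in the controls. The groups overlapped, with a difference of 0.12 ± 0.11 (SE, n = 2 each, limma adjusted p = 0.788) and 0.18 without induced replicate 1. Cux1, the CUT homeobox gene, read 7.95 and 8.29 in the induced arrays, against 7.93 and 8.02 in the controls. These overlapped, and the difference of 0.15 ± 0.14 (SE, n = 2 each, limma adjusted p = 0.802) was 0.32 without induced replicate 1 and -0.02 without induced replicate 2. The 5 kept Cux1 probe sets disagreed. One was separated upward, at 6.03 and 6.02 in the induced arrays and 5.87 and 5.95 in the controls. Another was separated downward, at 4.25 and 4.25 in the induced arrays and 4.45 and 4.75 in the controls (difference -0.35 ± 0.13, SE, n = 2 each, unadjusted p = 0.0360, limma adjusted p = 0.453), with a mean near the filter. Without induced replicate 1 these were 0.11 and -0.35. The remaining differences were 0.51 ± 0.31 and 0.05 ± 0.24, both overlapping, and they were 0.02 and -0.34 without induced replicate 2. Without induced replicate 1 the second was 0.43, and the first was 1.004. The 4 dim Cux1 probe sets differed by 0.02, 0.26, 0.41 and 0.14.

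**Figure D2:**
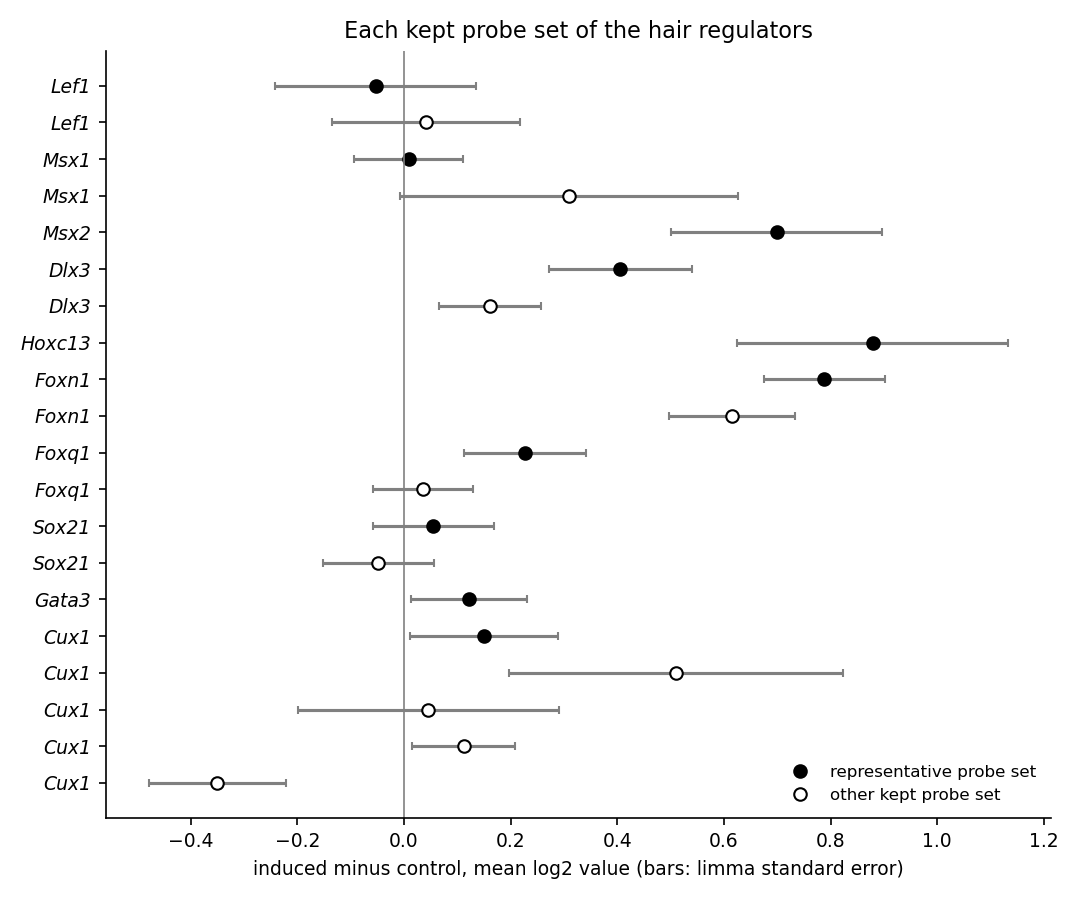
Induced minus control mean of log2 values for each of the 20 kept probe sets, with limma standard errors, representative probe sets filled. Both Foxn1 probe sets (0.79 and 0.62) and both Dlx3 probe sets (0.41 and 0.16) lie on the same side of 0, whereas the Cux1 probe sets run from -0.35 to 0.51.

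Set beside these regulators, the keratins of the hair shaft, which build the fibre itself, lay higher on the induced arrays. Of the 16 shaft keratins listed, 12 had a kept single-gene probe set and 4 had none (Krt85 among them). All 12 had a higher mean, 11 had both induced arrays above both controls, against 20.1% of all genes, and 11 had an unadjusted p under 0.05, against 4.4% of all genes higher at that p. The controls differed too. Control replicate 2 was above control replicate 1 in all 12, against 43.8% of all genes, with mean log2 values of 9.50 and 8.95. These keratins thus varied together over the arrays, and their counts are not independent results. The median difference was 0.86, or 1.82-fold, within a range of 0.31 to 0.96. It was 0.71 without induced replicate 1 and 0.60 without control replicate 1. Krt31, a cortex keratin, read 11.26 and 10.98 in the induced arrays, against 9.86 and 10.52 in the controls (difference 0.93 ± 0.23, SE, n = 2 each, limma adjusted p = 0.302), and its difference was 0.79 without induced replicate 1 and 0.60 without control replicate 1. Krt32, of the cuticle, read 9.02 and 9.06 in the induced arrays, against 8.05 and 8.36 in the controls (0.84 ± 0.13, adjusted p = 0.188), and its difference was 0.86 without induced replicate 1. Both keratins were separated, as were Krt33b and Krt34 with differences of 0.87 each and Krt86, a cortex keratin, with 0.96 ± 0.22. Without induced replicate 1 these were 0.61, 0.71 and 0.70, and Krt33b was 0.56 without control replicate 1. The exception was Krt35, an early keratin of matrix and cuticle, which read 7.53 and 9.58 in the induced arrays and 7.32 and 8.46 in the controls. Its groups overlapped, and its induced arrays differed from each other by more than its difference of 0.67 ± 0.69, which was 1.70 without induced replicate 1, -0.36 without induced replicate 2, 0.10 without control replicate 1 and 1.24 without control replicate 2. Closely related keratins can share probe sequence, which was not tested.

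The keratins of the inner root sheath and companion layer gave 8 kept genes of 9 listed. All 8 were separated upward, against 20.1% of all genes, and all 8 had an unadjusted p under 0.05, against 4.4%, with a median difference of 0.97 (1.95-fold), and 1.23 without induced replicate 1. Krt26 read 10.19 and 10.29 in the induced arrays, against 8.82 and 9.23 in the controls (1.21 ± 0.16, SE, n = 2 each, limma adjusted p = 0.158), while Krt71 and Krt27, of the inner root sheath, differed by 0.90 ± 0.18 and 0.84 ± 0.15. Without induced replicate 1, Krt26, Krt71, Krt27 and Krt75 were at 1.26, 1.06, 0.95 and 1.19. Krt75, of the companion layer, read 9.89 and 10.29 in the induced arrays against 8.89 and 9.32 in the controls. No probe set of the array had an adjusted p under 0.158. Of the structural partners of shaft and sheath, 11 of 12 were kept, 10 had higher means and 9 were separated upward, against 20.1% of all genes, with a median difference of 1.01, and 0.94 without induced replicate 1. Padi3, the enzyme that citrullinates trichohyalin, read 9.31 and 9.53 in the induced arrays, against 8.22 and 8.61 in the controls (1.01 ± 0.16, SE, n = 2 each, limma adjusted p = 0.197). S100a3, a cuticle calcium-binding protein, read 11.49 and 11.56 in the induced arrays, against 10.28 and 10.75 in the controls (1.01 ± 0.17, adjusted p = 0.201). Without induced replicate 1 they differed by 1.12 and 1.05. Control replicate 2 was above control replicate 1 in all 8 sheath keratins and in 10 of the 11 partners, against 43.8% of all genes. Lists of this kind were chosen with results of these data known, so their counts are no independent evidence.

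By size, 3 of the 10 regulators were at least 1.5-fold higher (Foxn1, Hoxc13 and Msx2), against 11 of the 12 shaft keratins, 8 of the 8 sheath keratins and 1.04% of all genes. The median difference was 0.19 for the regulators, which is lower than the 0.86 of the shaft keratins and the 0.97 of the sheath keratins. These are differences and not levels, and the lists were not tested against each other. The order of the 4 arrays also differed between the lists, as noticed after the values were seen. Hoxc13, Msx2 and Dlx3 had the order induced replicate 2, induced replicate 1, control replicate 2, control replicate 1 from high to low, as did all 8 sheath keratins and 3 shaft keratins, against 5.42% of all genes. Foxn1 and Foxq1 had induced replicate 1 highest and the same order of controls, as did 8 of the 12 shaft keratins, against 4.94% of all genes. These orders are of the representative probe sets. The second Foxn1 probe set had induced replicate 2 highest, the order of the sheath keratins, and the second Dlx3 probe set had control replicate 1 above control replicate 2. Krt35 had the order of Cux1. With 4 arrays no correlation between regulators and keratins was computed.

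**Figure D3:**
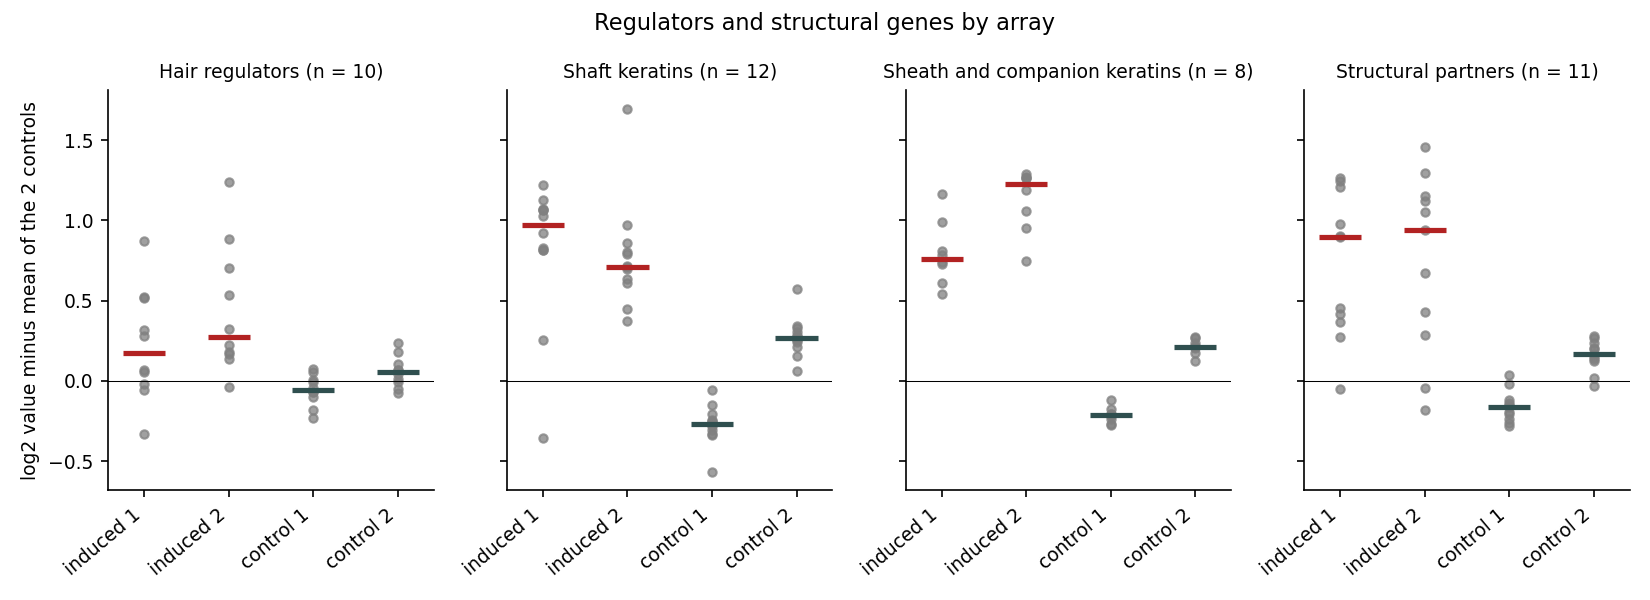
Log2 value of each gene on each array minus the mean of its controls, with the median of each list as a bar, induced arrays at left and controls at right. The medians of the regulators lie at 0.17 and 0.27 on the induced arrays, and those of the shaft keratins at 0.97 and 0.71.

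The 5 genes whose profile over the 4 arrays was most like that of Foxn1, by Euclidean distance of log2 values after centring, were Slc4a1 (0.0878), an anion exchanger, Capn8 (0.115), a calpain protease, Fbxo32 (0.133), a ubiquitin ligase subunit, Krtap6-5 (0.143), a keratin-associated protein of the shaft, and Klf7 (0.162), a Krüppel-like factor. Krtap6-5 read 12.77 and 12.51 in the induced arrays, against 11.63 and 11.88 in the controls.

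Among 20 kept other follicle transcription factors, 12 had higher means and 8 lower, 10 were separated upward, against 20.1% of all genes, and 0 downward, against 19.3%. At an unadjusted p under 0.05, 2 were higher, against 4.4%. Their median difference was 0.20, and it was 0.25 without induced replicate 1 and 0.02 without induced replicate 2. Trps1, a GATA-type repressor needed for hair, read 5.34 and 5.54 in the induced arrays, against 4.83 and 4.98 in the controls (0.53 ± 0.12, SE, n = 2 each, limma adjusted p = 0.268), and 0.63 without induced replicate 1. Foxc1, a forkhead factor of the follicle, differed by 0.37 ± 0.14, which was 0.55 without induced replicate 1 and 0.18 without induced replicate 2. Prdm1, a repressor also found in the sheath, differed by 0.27 ± 0.15, which was 0.22 without induced replicate 1, 0.07 without control replicate 1 and 0.47 without control replicate 2. Ovol1, a zinc finger factor of differentiating epithelium, differed by 0.21 ± 0.10 and was separated, and was 0.18 without induced replicate 1. Runx1, a runt factor, differed by 0.30 ± 0.22 with overlap, and was 0.60 without induced replicate 1, -0.01 without induced replicate 2 and 0.17 without control replicate 1. One of the other 5 kept Runx1 probe sets had the opposite sign (-0.01), and the rest differed by 0.43 ± 0.12, 0.16 ± 0.10, 0.07 ± 0.12 and 0.07 ± 0.09. Of 13 kept relatives of the members, such as other Dlx, Gata and Foxn genes, 9 were higher and 4 lower in mean, with a median of 0.05, which was 0.10 without induced replicate 1 and -0.01 without control replicate 1. Dlx4 was the 1 separated gene among them, against 20.1% of all genes upward, at 5.16 and 5.23 in the induced arrays against 4.73 and 4.98 in the controls. Its difference of 0.34 ± 0.12 was 0.38 without induced replicate 1 and 0.22 without control replicate 1.

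Of 16 signal genes upstream of the regulators, 11 had higher and 5 lower means, with 6 separated upward, against 20.1% of all genes, 1 downward, against 19.3%, and a median of 0.06, which was 0.14 without induced replicate 1, 0.12 without control replicate 1 and 0.02 without control replicate 2. Wnt5a, a secreted Wnt ligand, read 6.03 and 6.62 in the induced arrays, against 5.40 and 5.57 in the controls (0.84 ± 0.20, SE, n = 2 each, limma adjusted p = 0.291), and its difference was 1.14 without induced replicate 1 and 0.55 without induced replicate 2. Ctnnb1, which encodes the beta-catenin partner of Lef1, was the one separated downward, at 12.15 and 12.22 in the induced arrays against 12.46 and 12.49 in the controls (-0.29 ± 0.10, adjusted p = 0.414), and its difference was -0.25 without induced replicate 1. The other 2 kept Ctnnb1 probe sets differed by -0.38 ± 0.14 and -0.48 ± 0.09. Wnt10b, a ligand of the matrix, differed by 0.07, and by 0.08 without induced replicate 1. Notch1, a receptor of the inner matrix, differed by 0.16 ± 0.14 with overlap, which was 0.32 without induced replicate 1 and -0.01 without induced replicate 2. Bmp4, a BMP ligand, read 7.08 and 7.77 in the induced arrays, against 6.92 and 6.92 in the controls. Its difference of 0.50 ± 0.22 rests on induced replicate 2, since it was 0.85 without induced replicate 1 and 0.16 without induced replicate 2.

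**Figure D4:**
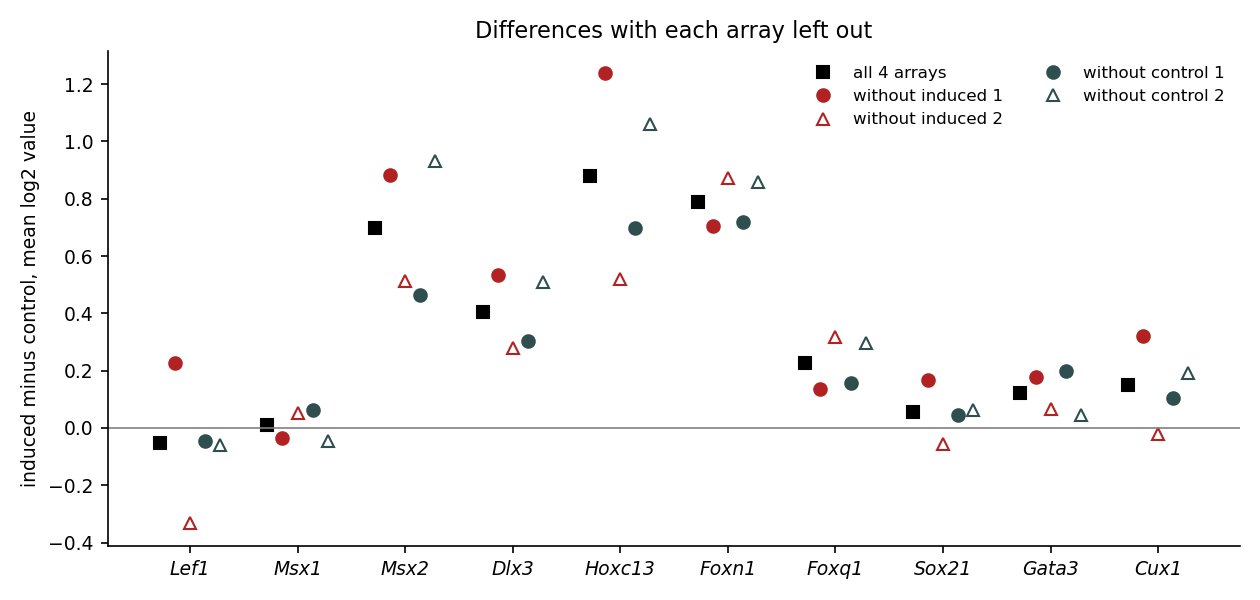
Induced minus control mean of log2 values of the 10 regulators with all 4 arrays (squares) and with each array left out. Foxn1, Hoxc13, Msx2 and Dlx3 stay above 0 in every case, and Lef1 lies between -0.33 and 0.23.

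Markers of other cells also differed between the groups or between single arrays. The 8 interfollicular keratinocyte markers were lower in mean in 6, all 6 separated downward, against 19.3% of all genes, with a summed linear signal of 92339 and 88455 in the induced arrays against 96372 and 96212 in the controls. Krt5, Krt14, Krt1, Krt10 and Lor, which make up most of that sum, read 13.6 to 14.3, near the highest value of the arrays, 14.6. Trp63 differed by -0.30 ± 0.09, but its other kept probe sets differed by 0.46 ± 0.12, 0.10 ± 0.14 and -0.02 ± 0.10. Krt14, which defines the basal layer and whose promoter drives the activator, read 14.01 and 13.96 in the induced arrays and 14.10 and 14.13 in the controls. The 9 melanocyte markers, whose cells sit in the matrix beside the regulators, were higher in mean in 8, with sums of 3947 and 5928 in the induced arrays against 4318 and 4494 in the controls. Their median difference was 0.45 without induced replicate 1 and -0.11 without induced replicate 2. Of 6 fibroblast markers 3 were under the filter, and the sums of the rest were 244 and 454 in the induced arrays against 370 and 354 in the controls. Of 12 dermal papilla markers 6 were under the filter, and the sums of the rest were 134 and 156 in the induced arrays against 141 and 143 in the controls. The 7 kept epidermal T cell markers summed to 350 and 392 in the induced arrays against 372 and 381 in the controls, and the 6 Langerhans cell markers to 6583 and 6263 in the induced arrays against 5556 and 5415 in the controls. Among the Langerhans cell markers Epcam, which keratinocytes of the follicle also express, was the 1 that was separated (0.37 ± 0.12, and -0.04 ± 0.13 in its other kept probe set), the median difference was 0.05, and Cd207, which defines these cells, overlapped with a difference of -0.25 ± 0.27. Cycling markers had lower means in 5 of 5, with a median difference of -0.33, which was -0.09 without induced replicate 1 and -0.48 without induced replicate 2. Lef1, Hoxc13, Cux1 and Msx1 have induced replicate 2 well above replicate 1 in at least 1 probe set, as the melanocyte and fibroblast sums do. So do Shh, a signal gene, at 5.91 and 7.45, and Lhx2, a follicle factor, at 5.88 and 7.44. Without induced replicate 1 they differed by 0.66 and 1.01, and without induced replicate 2 by -0.87 and -0.54. Induced replicate 1 was the higher in 0 of the 8 sheath keratins, 0 of the 5 cycling markers and 8 of the 12 shaft keratins, against 46.4% of all genes. The part of the other cell types and of the sex-linked difference in the regulators' values was not tested.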

How the data were processed

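Messenger RNA was measured on 4 Affymetrix arrays, 1 per sample. The deposited values are on the log2 scale, made with RMA per the submitters' processing notes. RMA gives all arrays 1 distribution of probe values, which hides a shift in total RNA. The deposited table held 45101 probe sets, of which 64 controls were left out. In the platform annotation, 34945 of the other 45037 had 1 gene, 932 several and 9160 were unlisted. Only those with 1 gene were read as genes. The filter, the limma fit with its adjusted p, the array correlations and the shares of all probe sets were taken over probe sets of any annotation. Identifiers of 34741 were found in the RefSeq gene table, which gave current symbols. Probe sets with a mean at or above the 40th percentile (4.17) were kept, and the kept probe set with the highest mean stood for a gene.

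Groups were compared with limma 3.58.1 in R 4.3.3 (lmFit, eBayes, two-sided, Benjamini-Hochberg over 27022 probe sets; 2 residual and 3.82 prior degrees of freedom). Folds are 2 to the power of the difference of mean log2 values. Standard errors (SE, after ±) are limma's moderated ones, which borrow from the spread of all kept probe sets. They can exceed the spread of the 4 arrays in a given probe set. The fit was run on simulated data with changes larger than those of the members, so that run does not show whether changes of their size would be called. Named genes were every member, up to 4 genes per list by moderated statistic, 13 fixed by name, and the 5 genes nearest to Foxn1 in profile. A few more were named after their values were seen. The members, lists and tests were chosen with earlier results of these data known. Motifs were searched in 250 bases before RefSeq starts (GRCm38.p6) with Python 3.11.15. The groups are littermates, but no label ties a replicate number to a litter, and same-numbered arrays had deviations that correlated at -0.100, so no block was used. The alternatives were other filters, scalings, priors and probe set summaries, a block, and leaving out each array.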

Additional observations from a re-analysis of the deposited data

How the results depend on the processing

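The differences of the 10 members kept their sign under every alternative that used all 4 arrays, and with an array left out Lef1, Cux1, Sox21 and Msx1 changed sign in at least 1 case. With 2 arrays a group, no difference of any size on the array had an adjusted p under 0.05 in the main setting. A missing call therefore does not show that a regulator was unchanged. Under eBayes with trend and robust, 1 member probe set (Foxn1) had an adjusted p under 0.05, against 0 in the main setting, and 126 of all probe sets did; without induced replicate 2, 6 did. The count of lower member probe sets at unadjusted p under 0.05 was 1, and 0 with the filter at the 60th percentile, with trend and robust, and with a gene's probe sets averaged. With an array left out in turn, higher member probe sets ranged from 2 to 8 and lower ones from 0 to 1, separated members in either direction from 6 to 9, and shaft keratins at unadjusted p under 0.05 from 7 to 11. The median difference ranged from 0.60 to 1.15 for shaft keratins, 0.74 to 1.23 for sheath and companion keratins and 0.78 to 1.21 for structural partners. The cause was not tested. At an unadjusted p under 0.05, the replicate block, or paired fit, gave 5 higher and 1 lower member probe sets. It gave 11 shaft keratins and 8 sheath keratins. A crossed pairing, chosen after seeing the data, gave 5 higher and 1 lower member probe sets. The shares of all probe sets at that p were not taken for these fits, so their counts stand without a background. In both fits 0 of all 27022 probe sets had an adjusted p under 0.05, as in the main setting.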
